A study of Rattus norvegicus with 36 samples.

Results

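The 7 genes described here, Abcb11, Abcb4, Abcg5, Abcg8, Slc10a1, Atp8b1 and Scarb1, encode membrane proteins that move bile salts, sterols and phospholipids into, out of or across the membranes of hepatocytes. They were taken by name, through the probe sets whose platform annotation gives 1 of these symbols and no other, and make up 7 of the 14217 genes that the arrays measured. They were read by 9 probe sets, 2 each for Atp8b1 and Scarb1 and 1 for each other gene, and no further probe set carried 1 of these symbols together with another. The probe sets were 1368769_at for Abcb11, 1369161_at for Abcb4, 1369455_at for Abcg5, 1369440_at for Abcg8 and 1368609_at for Slc10a1. Atp8b1 was read by 1378134_at and 1391693_at, and Scarb1 by 1386956_at and 1367855_at, of which the brighter is given first and stands for the gene unless the second is named.

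Liver RNA came from male rats of the Harlan Sprague Dawley stock, 7 weeks of age when dosing began. DecaBDE (decabromodiphenyl ether), a flame retardant that carries bromine, was given in corn oil by oral gavage, 5 ml/kg of body weight, once on each of 5 days. Every group received the corn oil, alone in the vehicle group and with decaBDE in 5 dosed groups, at 0.1 mg/kg in the lowest and at 0.959, 9.59, 95.9 and 959 mg/kg in the others. There were 6 Affymetrix arrays for each, 36 in all, from left lobes collected the day after dosing ended. Values are log2 RMA signals, so a difference of 1 is a doubling, and limma compared each dose with vehicle over 31042 probe sets with Benjamini-Hochberg adjustment and a threshold of 0.05. Since the labels leave unsaid whether every array is a separate animal, p-values measure the spread between arrays, and 6 arrays a group limit the precision.

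Bile is formed at the canaliculus, the narrow channel between neighbouring hepatocytes. Bile salts are taken up from portal blood across the basolateral membrane and pumped into the canaliculus, where they draw out phosphatidylcholine and cholesterol, and the 3 lipids leave together as mixed micelles. Slc10a1 encodes the sodium-dependent uptake carrier NTCP and Abcb11 the bile salt export pump. Abcb4 encodes the pump that presents phosphatidylcholine to the canalicular lumen. Abcg5 and Abcg8 encode partner subunits that work as a heterodimer and secrete cholesterol and plant sterols. Atp8b1 encodes a flippase that keeps the canalicular membrane ordered, and Scarb1 the receptor SR-BI, which takes cholesteryl ester from high-density lipoprotein.

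Abcg5 and Abcg8 are neighbours with a shared stretch of promoter, and the window around the Abcg5 start is shown because the signals of these genes moved together from array to array. Whether the shared stretch has a part in that was not tested. RefSeq places the Abcg5 window at chr6:15717686-15717985 on the plus strand of GRCr8 and the Abcg8 window at chr6:15717681-15717980 on the minus strand. Each window holds 250 bases before a gene's start and 50 after it. The starts lie 206 bases apart and point away from each other, and the windows share 295 bases, read as reverse complements. Of 33469 RefSeq promoters, 6.02% had a start on the opposite strand pointing away within that distance. Capitals mark short motifs found on either strand, and on the opposite strand a motif appears as its reverse complement.
Abcg5: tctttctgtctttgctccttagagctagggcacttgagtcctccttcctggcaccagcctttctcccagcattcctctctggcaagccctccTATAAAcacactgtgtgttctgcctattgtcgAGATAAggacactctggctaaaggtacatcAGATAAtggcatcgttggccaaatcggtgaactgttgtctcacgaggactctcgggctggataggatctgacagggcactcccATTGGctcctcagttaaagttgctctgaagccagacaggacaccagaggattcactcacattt
The window held TATAAA once, which 14.22% of all promoters in the table held, CCAAT once, which 37.49% held, and AGATAA at 2 places, which 11.58% held. GGGCGG, held by 33.06%, and AGGTCA, held by 16.18%, were not among its letters. The Abcg8 window held the same 4 matches, since they lie in the shared stretch.

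The Abcb4 window, shown because Abcb4 was the gene with a dose trend, lies at chr4:26164096-26164395 on the minus strand of GRCr8.
Abcb4: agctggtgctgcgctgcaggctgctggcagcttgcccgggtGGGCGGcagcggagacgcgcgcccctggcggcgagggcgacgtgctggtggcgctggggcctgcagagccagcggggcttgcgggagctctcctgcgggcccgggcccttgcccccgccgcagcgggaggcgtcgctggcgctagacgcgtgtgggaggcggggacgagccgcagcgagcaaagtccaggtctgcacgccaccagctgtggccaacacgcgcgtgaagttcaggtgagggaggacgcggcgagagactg
Its GC content was 74.3%, above that of 96.3% of all promoters, against 50.3% in the Abcg5 window and a median of 51.7% over the table. It held GGGCGG once, in capitals, and none of the other 4 motifs. RefSeq's table held windows for 5 of the 7 genes, and Abcb11 and Scarb1 are named only. The Slc10a1 window held 2 copies of AGGTCA, the core element that many nuclear receptors bind, and the Atp8b1 window held TATAAA and CCAAT once each. These matches describe letters in a window and were not tested as binding sites.

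No transporter probe set passed the threshold at any single dose, and 1 of 9 passed the trend test across doses, that of Abcb4, which fell. At 0.1 mg/kg 0 of 9 passed, where 0% of all probe sets did. At 0.959 mg/kg 0 of 9 passed against 0.029% of all probe sets, at 9.59 mg/kg 0 against 0.116%, at 95.9 mg/kg 0 against 0.0902%, and at 959 mg/kg 0 against 0.11%. The limma F-test for any dose called 0 of 9, against 0.135% of all probe sets. The trend, a straight line in dose rank with vehicle as 0 and 959 mg/kg as 5, called 1 of 9, against 0.393% of all probe sets, and against 0.058% when only lower calls are counted. By limma at an unadjusted p under 0.05 the counts of 9 were 0, 1, 3, 3 and 3 from the lowest dose to the highest, against 3.79%, 6.06%, 8.61%, 7.01% and 6.08% of all probe sets. For the trend 5 of 9 were under that mark, against 8.71% of all probe sets, and for any dose 3 of 9, against 7.53%. Counted as genes, 0, 1, 3, 3 and 2 of 7 were under it in order of dose, 4 for the trend and 3 for any dose. The members are not independent. Abcg5 and Abcg8, which moved together, were both under it at 9.59 and 95.9 mg/kg, by the trend and for any dose. Both Scarb1 probe sets were under it at 959 mg/kg and by the trend.

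The log2 fold change against vehicle was below 0 for 3, 6, 4, 6 and 7 of 7 genes from 0.1 to 959 mg/kg, beside 46.8%, 48%, 49.9%, 51.7% and 50.5% of all probe sets. The median over the 7 genes was 0.008, -0.08, -0.085, -0.094 and -0.177, beside 0.006, 0.004, 0, -0.004 and -0.001 over all probe sets. The 5 comparisons share the same vehicle arrays, so these counts are not separate pieces of evidence, and no test was made over the 7 genes together. In whole liver, fewer cells of a type and less RNA per cell cannot be told apart.

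**Figure D1:**
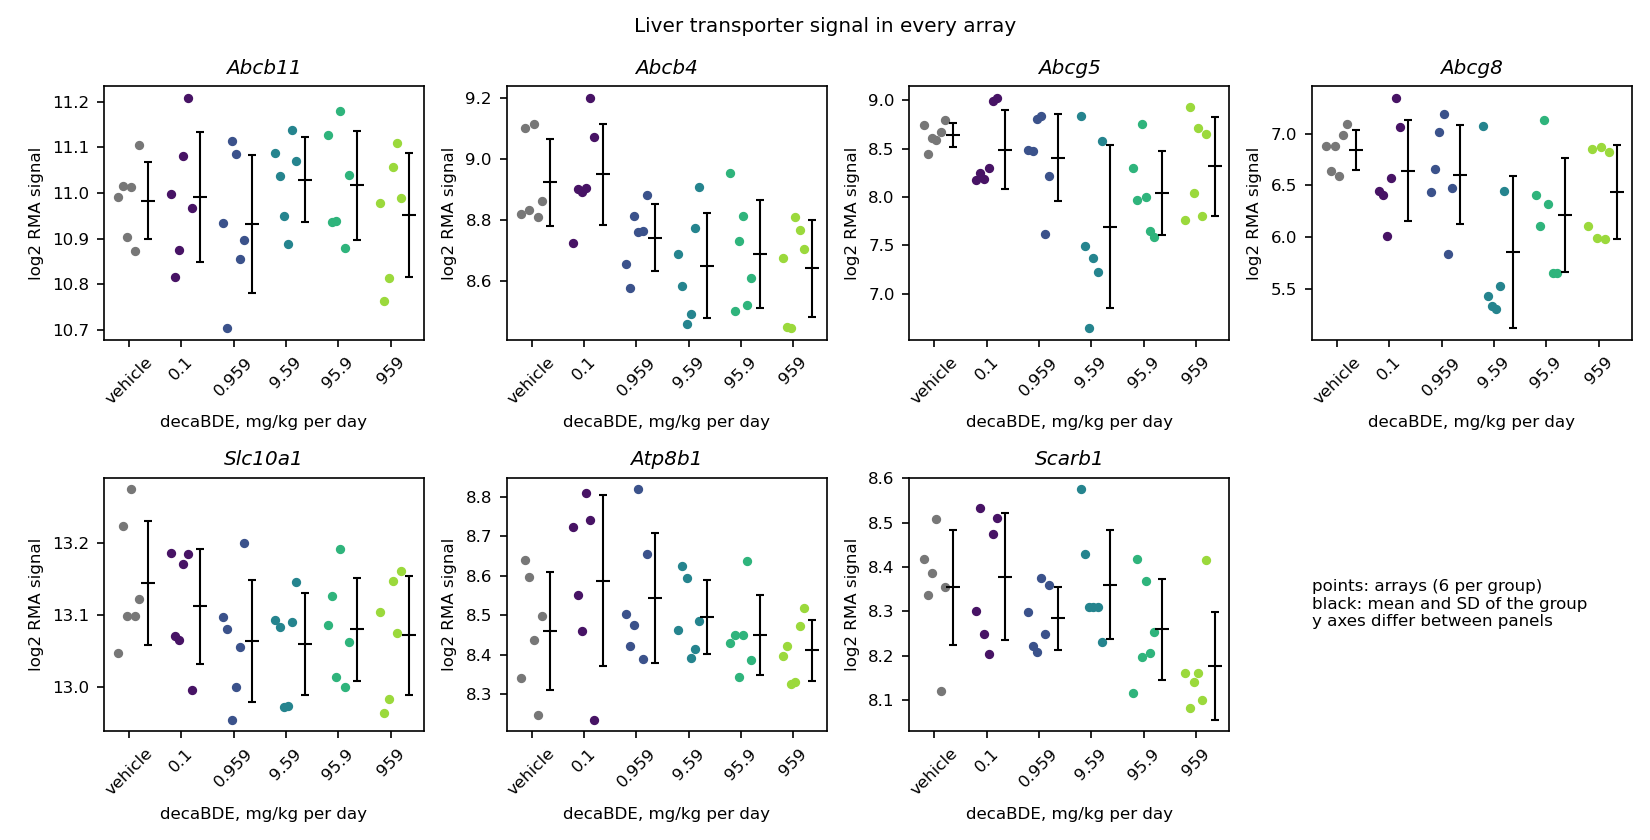
Log2 RMA signal (vertical axis, a scale of its own in each panel) of the 7 transporter genes by dose of decaBDE (horizontal axis, mg/kg per day, vehicle at the left). Points are the 6 arrays of a group and black bars the group mean and SD; Abcb4 lies lower from 0.959 mg/kg up, and Abcg5 and Abcg8 spread widely in the dosed groups while their vehicle arrays lie close together.

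Abcb4, the phosphatidylcholine pump, fell across doses. Its lowest, median and highest arrays at 959 mg/kg were 8.447, 8.691 and 8.810, against 8.811, 8.847 and 9.112 in vehicle. All 6 arrays at 959 mg/kg thus lay below all 6 vehicle arrays, although the nearest of them were 0.001 apart, and 0.161% of all probe sets had such a separation. The lowest, median and highest arrays were 8.726, 8.904 and 9.200 at 0.1 mg/kg, 8.578, 8.763 and 8.883 at 0.959 mg/kg, 8.459, 8.637 and 8.908 at 9.59 mg/kg, and 8.502, 8.671 and 8.954 at 95.9 mg/kg. The number of 6 arrays below every vehicle array was 1 at 0.1 mg/kg, 4 at 0.959 mg/kg, 5 at 9.59 mg/kg, 4 at 95.9 mg/kg and 6 at 959 mg/kg. For counts short of 6, here and for the other genes, the share of all probe sets was not computed.

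The fold changes of Abcb4 levelled off from 9.59 mg/kg. The log2 fold change was 0.03 at 0.1 mg/kg, -0.18 at 0.959 mg/kg, -0.27 at 9.59 mg/kg, -0.23 at 95.9 mg/kg and -0.28 at 959 mg/kg, each with a standard error of 0.088. At 959 mg/kg the signal differed from vehicle by -17.7%, with a 95% interval from -27.2% to -6.80%, and the adjusted p by limma was 0.434. The adjusted p at the lower doses, in ascending order, was 1, 0.821, 0.32 and 0.533. Ordered by mean, the groups ran 959 mg/kg (8.643), 9.59 mg/kg (8.651), 95.9 mg/kg (8.689), 0.959 mg/kg (8.742), vehicle (8.923) and 0.1 mg/kg (8.949), and the step between 0.959 mg/kg and vehicle was the only one larger than the SDs of its groups, 0.109 and 0.142.

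The trend of Abcb4 was -0.065 log2 units per dose rank, with a standard error of 0.0149 and a 95% interval from -0.095 to -0.035 (limma adjusted p = 0.0317). Above 0.1 mg/kg each rank is a step by about the same factor in dose, and the slope corresponds to -4.40% per step. The call was lost on a scale of dose itself, with vehicle left out, after subtracting each array's median, and without any 1 of 8 arrays, with the highest adjusted p of those 8 at 0.0935. The slope stayed negative in all 47 alternative fits.

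Abcg5 and Abcg8 had the lowest group means at 9.59 mg/kg, where the arrays fell apart into high and low ones, as in some other dosed groups. At 9.59 mg/kg the 6 Abcg5 arrays, replicates 1 to 6, read 8.841, 7.496, 6.646, 7.370, 7.229 and 8.580, against 8.742, 8.439, 8.607, 8.593, 8.670 and 8.795 in vehicle. The same 6 arrays read 7.073, 5.425, 5.336, 5.304, 5.528 and 6.446 for Abcg8 at 9.59 mg/kg, against 6.881, 6.644, 6.881, 6.593, 6.988 and 7.094 in vehicle. Replicates 2 to 5 were low for both genes and lay below every vehicle array, while replicate 1 lay among or above the vehicle arrays. Replicate 6 lay among the vehicle arrays for Abcg5 and below every vehicle array for Abcg8. A split into high and low arrays was not particular to 9.59 mg/kg. At 959 mg/kg replicates 1 to 6 read 6.105, 6.857, 5.990, 6.868, 5.976 and 6.827 for Abcg8. At 0.1 mg/kg they read 8.179, 8.251, 8.185, 8.303, 8.994 and 9.027 for Abcg5.

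The mean difference of both genes at 9.59 mg/kg was large and imprecise. Abcg8 averaged 5.852 ± 0.735 at 9.59 mg/kg and 6.847 ± 0.194 in vehicle (SD, n = 6 each), a log2 fold change of -0.995 with a standard error of 0.274 and an adjusted p by limma of 0.205. As a percentage this was -49.8%, with a 95% interval from -65.9% to -26.3%. Abcg5 averaged 7.694 ± 0.844 at 9.59 mg/kg and 8.641 ± 0.126 in vehicle (SD, n = 6 each), a log2 fold change of -0.95 with a standard error of 0.272 and an adjusted p by limma of 0.236. These standard errors, intervals and p-values rest on 1 SD pooled over all groups, 0.51 for Abcg8 and 0.507 for Abcg5. That SD is smaller than the SD at 9.59 mg/kg and larger than that in vehicle, so they do not follow the uneven spread of the groups. Without replicate 1 of the 9.59 mg/kg group, Abcg8 passed the threshold, with a log2 fold change of -1.24 and an adjusted p by limma of 0.0431, while Abcg5 at that dose stayed above it in all 45 alternative fits, the smallest adjusted p being 0.0734.

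At the other doses the mean differences of this pair were smaller. Abcg5 differed from vehicle by -0.15, -0.24, -0.60 and -0.32 log2 units at 0.1, 0.959, 95.9 and 959 mg/kg, and Abcg8 by -0.21, -0.24, -0.63 and -0.41, with the standard errors given above. The lowest group means of both genes were those of 9.59 mg/kg, followed upward by 95.9, 959, 0.959 and 0.1 mg/kg and vehicle, and each step between neighbours was smaller than the larger SD of its groups. Neither gene had a trend past the threshold, with an adjusted p by limma of 0.492 for Abcg5 and 0.415 for Abcg8.

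**Figure D2:**
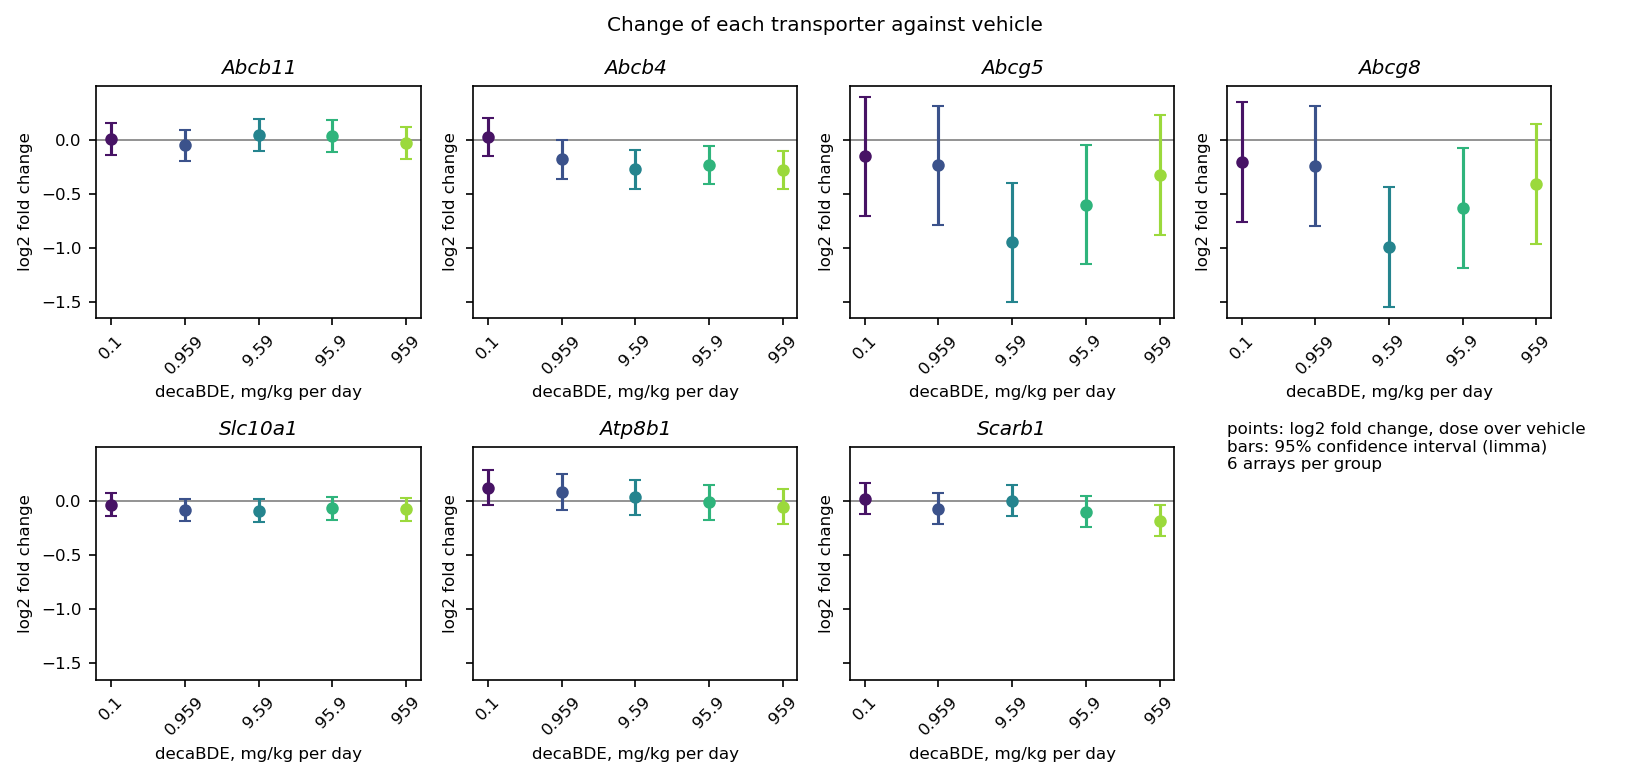
Log2 fold change of each transporter gene, dose over vehicle (vertical axis, the same in all panels), at the 5 doses of decaBDE (horizontal axis, mg/kg per day). Points are limma estimates and bars their 95% confidence intervals; Abcb4 lies below 0 from 0.959 mg/kg up, and Abcg5 and Abcg8 have the widest intervals and their lowest estimates at 9.59 mg/kg.

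The spread of Abcg5 and Abcg8 was far from even among groups. The SD of Abcg5 over 6 arrays was 0.126 in vehicle and 0.406, 0.450, 0.844, 0.434 and 0.508 from 0.1 to 959 mg/kg. The SD of Abcg8 was 0.194 in vehicle and 0.487, 0.479, 0.735, 0.556 and 0.455 in the same dose order. In the 5 dosed groups the SD of Abcg5 exceeded that of 96.8% to 99.8% of all probe sets, against 46.8% in vehicle. For Abcg8 the share was 97.9% to 99.8% in the dosed groups, against 82.8% in vehicle. These SDs are given as a description, and no test of them was made.

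The dosed arrays on the low side were largely the same ones for both genes. Of 30 dosed arrays, 18 had Abcg5 below every vehicle array and 20 had Abcg8 below every vehicle array. Both genes were below in 18 arrays and neither was in 10. The 18 arrays low in Abcg5 were 4 of 6 at 0.1 mg/kg, 2 at 0.959 mg/kg, 4 at 9.59 mg/kg, 5 at 95.9 mg/kg and 3 at 959 mg/kg. Some dosed arrays lay above every vehicle array instead. From 0.1 to 959 mg/kg these were 2, 2, 1, 0 and 1 of 6 for Abcg5, and 1, 1, 0, 1 and 0 for Abcg8. The vehicle arrays lay close together, and how many of all probe sets give such counts was not computed.

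**Figure D3:**
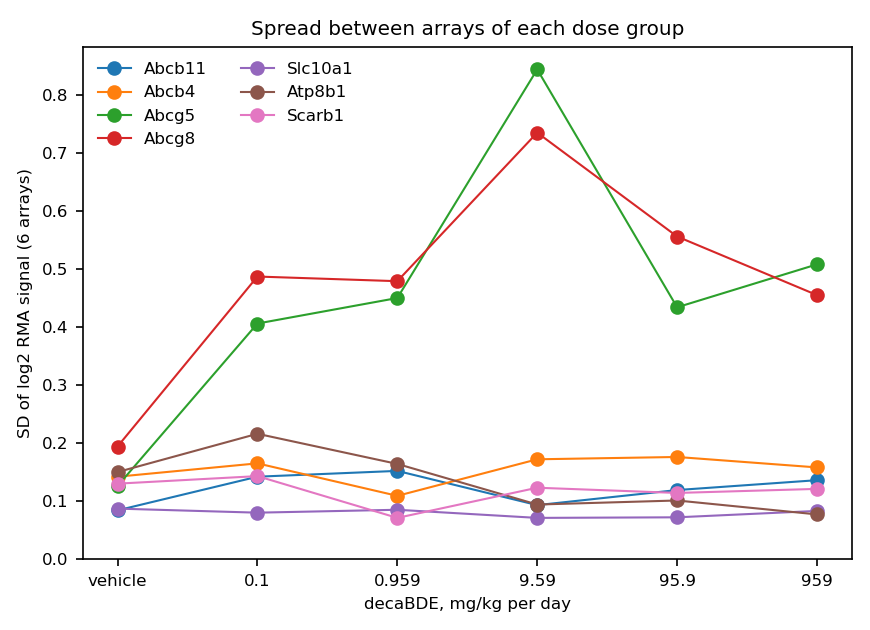
SD of the log2 RMA signal over the 6 arrays of a group (vertical axis, from 0) for each of the 7 transporter genes, by dose of decaBDE (horizontal axis, mg/kg per day, vehicle at the left). Lines join the groups of a gene; Abcg5 and Abcg8 reach 0.844 and 0.735 at 9.59 mg/kg, against 0.126 and 0.194 in vehicle, while the other 5 genes stay between 0.0708 and 0.216.

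Within an array the difference between Abcg8 and Abcg5 passed no test against vehicle. Abcg8 minus Abcg5 averaged -1.848 ± 0.195 at 0.1 mg/kg, -1.802 ± 0.136 at 0.959 mg/kg, -1.842 ± 0.315 at 9.59 mg/kg, -1.831 ± 0.149 at 95.9 mg/kg and -1.880 ± 0.157 at 959 mg/kg, against -1.794 ± 0.121 in vehicle (SD, n = 6 each). Only changes of this difference can be read, since the signals of 2 probe sets are not on a common scale. The change against vehicle lay between -0.09 at 959 mg/kg and -0.01 at 0.959 mg/kg. In the two-sided exact permutation test over all 924 splits of 12 arrays, p was 0.602, 0.913, 0.773, 0.636 and 0.307 in order of dose, and 0.913 at each dose after adjustment over the 5 doses, where the design can go down to 0.00216.

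The deviations of Abcg5 and Abcg8 from their group means varied together over the 36 arrays. Pearson's r was 0.930 and Spearman's rho 0.939, each with a permutation p of 1e-05, the smallest that 100000 resamples within groups can give (0.00021 after adjustment over 21 pairs of genes). The deviations had the same sign in 33 of 36 arrays, and r was 0.932 without the 2 arrays farthest from the median. Inside single groups of 6 arrays r was 0.797 in vehicle and 0.920, 0.959, 0.930, 0.985 and 0.952 from 0.1 to 959 mg/kg, with rho between 0.714 and 1.0. The exact permutation p of r, adjusted over the 6 groups, was 0.0639 in vehicle and 0.025, 0.025, 0.025, 0.00834 and 0.0639 in the dosed groups. The labels name no batch, so no value within batches can be given.

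**Figure D4:**
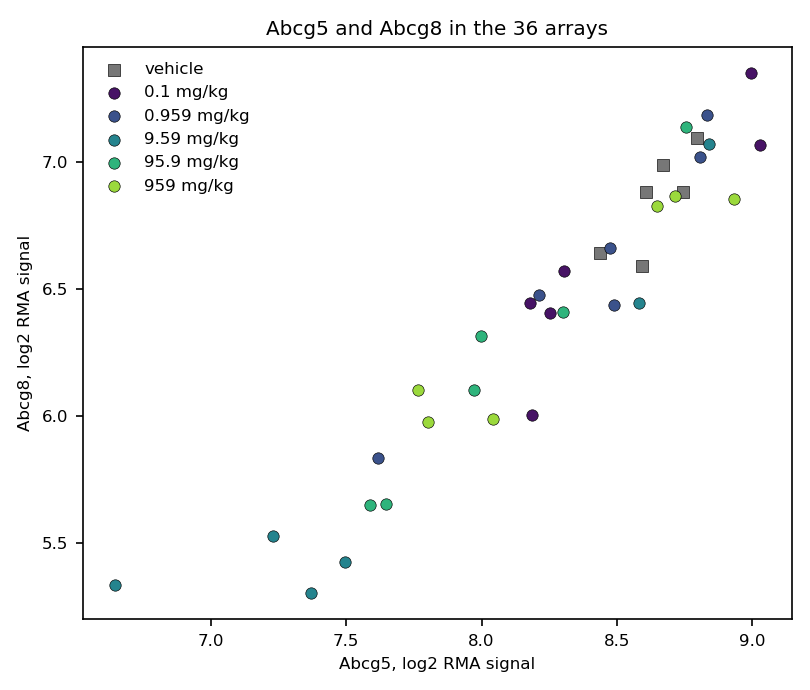
Log2 RMA signal of Abcg8 (vertical axis) against that of Abcg5 (horizontal axis) in the 36 arrays, squares for vehicle and circles for decaBDE doses. The points form a single band (r = 0.951 over all arrays), and the 4 lowest of the 9.59 mg/kg arrays lie at its lower end.

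Another 2 pairs of genes varied together past the threshold. Abcb11 and Abcb4, both canalicular pumps of the ABCB family, had r = 0.659 and rho = 0.689 over the 36 arrays, with permutation p adjusted over 21 pairs of 0.00084 and 0.00063, and r = 0.603 without the 2 farthest arrays. Abcb4 and Slc10a1 had r = 0.499 and rho = 0.496, with adjusted permutation p of 0.026 and 0.0319, and r = 0.493 without the 2 farthest arrays. Of 21 pairs 19 had a positive r and 3 passed by both measures. Abcb4 had r = 0.354 and rho = 0.306 with Abcg5, with adjusted permutation p of 0.179 and 0.225. With Abcg8 it had r = 0.373 and rho = 0.353, with adjusted permutation p of 0.179 and 0.159.

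**Figure D5:**
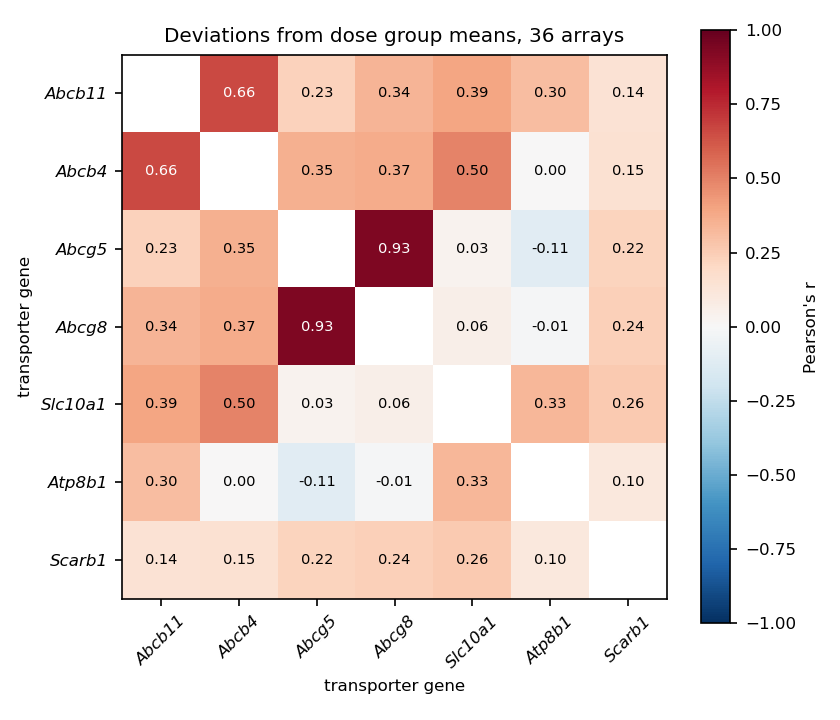
Pearson's r between the deviations of the 7 transporter genes from their dose group means, over 36 arrays, with a colour scale from -1 to 1 and genes along both axes. The Abcg5 and Abcg8 cell stands out at 0.93, followed by Abcb11 with Abcb4 at 0.66 and Abcb4 with Slc10a1 at 0.50.

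Abcb11, the bile salt export pump, kept within a narrow range. Its lowest, median and highest arrays at 959 mg/kg were 10.764, 10.984 and 11.110, against 10.874, 11.002 and 11.104 in vehicle, and the groups overlapped at every dose. The log2 fold change was 0.01, -0.05, 0.05, 0.03 and -0.03 in order of dose, with a standard error of 0.0721. The 95% intervals at the 5 doses lay between -12.8% and 14.2%. The limma F-test over all doses had an adjusted p of 0.946.

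Slc10a1, the NTCP carrier, had the smallest spread of the 7 genes, with a within-group SD of 0.08 that exceeded only 3.5% of all probe sets. Its lowest, median and highest arrays at 959 mg/kg were 12.963, 13.089 and 13.161, against 13.047, 13.111 and 13.276 in vehicle. The log2 fold change was -0.03, -0.08, -0.09, -0.07 and -0.07 in order of dose (standard error 0.0517), and the 95% intervals lay between -12.3% and 5.18%. The adjusted p by limma was 0.675 or more at every dose and 0.726 for the trend. At most 2 of 6 arrays at a dose lay below every vehicle array.

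Atp8b1, the flippase, was read differently by its 2 probe sets. The brighter had its lowest, median and highest arrays at 8.325, 8.410 and 8.519 at 959 mg/kg, against 8.248, 8.468 and 8.640 in vehicle. Its log2 fold change was 0.13, 0.08, 0.04, -0.01 and -0.05 in order of dose (standard error 0.0812), with a trend of -0.020 per rank and an adjusted p by limma of 0.742. The second probe set gave -0.22, 0.04, -0.20, -0.02 and -0.32 with a standard error of 0.218, so the signs of the 2 differed at 0.1 and 9.59 mg/kg. The SD of the second was 0.791 at 0.1 mg/kg and 0.502 at 959 mg/kg, where 1 array each, replicate 6, read 4.977 and 5.404, against a vehicle range from 6.472 to 7.032. Without these arrays its log2 fold change was 0.09 at 0.1 mg/kg and -0.12 at 959 mg/kg, with adjusted p by limma of 1 and 0.994. On the brighter probe set the same 2 arrays read 8.236 at 0.1 mg/kg, below every other array of that group, and 8.519 at 959 mg/kg, above every other array of its group.

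Scarb1, the HDL receptor, was lower at 959 mg/kg by nearly the same amount on both probe sets, and neither passed. The brighter had its lowest, median and highest arrays at 8.082, 8.152 and 8.416 at 959 mg/kg, against 8.120, 8.371 and 8.509 in vehicle. The second had 7.654, 7.916 and 8.234 at 959 mg/kg, against 8.019, 8.083 and 8.252 in vehicle, and both probe sets overlapped with vehicle, with 2 of 6 arrays of the brighter and 5 of 6 of the second below every vehicle array. The log2 fold change at 959 mg/kg was -0.18 on each, or -11.5% and -11.7%, with adjusted p by limma of 0.725 and 0.748. The trend was -0.033 per rank on the brighter and -0.040 on the second, with adjusted p of 0.33 and 0.24 by limma.

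The genes whose levels were most alike in pattern were found by Pearson's r over the 36 arrays among 14216 other genes, as a description with no test, since the arrays of a dose share it and all share 1 normalization. For Abcg5 and Abcg8 the other of the pair ranked first at r = 0.951. Next for Abcg5 came Rcl1 (r = 0.669) and Gng13 (0.652), and for Abcg8 Gng13 (0.676) and Abhd1 (0.668). For Abcb4 the nearest were Aqp9 (0.694), which encodes a glycerol channel of hepatocytes, Pc (0.668), pyruvate carboxylase, and Cpt1a (0.641), the carnitine palmitoyltransferase that admits fatty acids to mitochondria. For Abcb11 they were Tlcd4 (0.764), Abcc6 (0.757), an ABC transporter of hepatocytes, and Nr1d2 (0.750), a repressor of the circadian clock. For Slc10a1 they were Hoga1 (0.734), Sos2 (0.659) and Cdh1 (0.652), for Atp8b1 Srsf11 (0.710), Dock3 (0.694) and Pls1 (0.688), and for Scarb1 Slc38a3 (0.695), Lclat1 (0.661) and Rab9a (0.651).

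Among other transporters of bile acids and organic anions, Abcc3 and Abcc2 rose. Of 18 listed genes 16 were measured, and 1 rose at 9.59, 95.9 and 959 mg/kg each, with 0 falling. That gene was Abcc3, the basolateral pump MRP3, which returns conjugated bile acids and drugs to blood. Of all probe sets 0.116%, 0.0902% and 0.11% passed at those doses, in either direction. Abcc3 averaged 6.51, 6.32 and 6.41 at 9.59, 95.9 and 959 mg/kg, against 5.23 in vehicle, log2 fold changes of 1.28, 1.09 and 1.17 with a standard error of 0.183 and adjusted p by limma of 0.000126, 0.00184 and 0.000551. By the trend 2 of 16 rose, Abcc3 and Abcc2, where 0.393% of all probe sets passed in either direction. Abcc2 encodes the canalicular pump MRP2. Its slope was 0.067 log2 units per dose rank, with a standard error of 0.0148 and an adjusted p by limma of 0.0236. The Abcc2 call was lost in 7 of 47 alternative fits. It was lost on a straight line in dose and in dose rank without the vehicle arrays, with adjusted p by limma up to 0.889, and without any 1 of 5 arrays, replicates 3, 4 and 5 of vehicle and replicates 4 and 5 of 959 mg/kg, with adjusted p by limma between 0.0502 and 0.0756. Abcb1a, a drug pump of the same subfamily as Abcb4, had a log2 fold change of -0.08 at 959 mg/kg with a standard error of 0.111 and a trend with an adjusted p by limma of 0.953.

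The list of phospholipid supply, next to Abcb4 in role, held genes that make, break down or move phospholipids, not only those that supply phosphatidylcholine. Of 15 listed 13 were measured, 0 passed at any dose, and by the trend 1 fell, where 0.058% of all probe sets did, and 0 rose. The lists were drawn up with earlier results of these data known, so their counts are a description. The gene that fell was Pemt, which methylates phosphatidylethanolamine to phosphatidylcholine in hepatocytes, with a slope of -0.051 log2 units per rank, a standard error of 0.00882 and an adjusted p by limma of 0.00123. Pemt averaged 11.42 at 959 mg/kg and 11.66 in vehicle, a log2 fold change of -0.24 with an adjusted p by limma of 0.0557.

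The 4 other lists had 0 genes past the threshold at any dose or by the trend. These were partners and apical scaffold proteins (11 of 14 measured), nuclear receptors and other regulators (15 of 17), bile acid synthesis and conjugation (all 14) and sterol and lipoprotein exchange (14 of 21). The gene with the smallest F-test p in each was Cdc42, a GTPase of cell polarity, Nr1i2, the receptor PXR, Akr1c14, a hydroxysteroid dehydrogenase, and Mylip, a ligase that targets the LDL receptor. Their adjusted F-test p by limma was 0.445, 0.776, 0.751 and 0.529 in that order. At 959 mg/kg the median log2 fold change was 0.04 for partners, 0.04 for regulators, 0.03 for synthesis and -0.02 for sterol exchange, beside 0.02 for the other transporters, 0.03 for phospholipid supply and -0.001 over all probe sets. Nr1h4, the bile acid receptor FXR, averaged 9.96 at 959 mg/kg and 10.19 in vehicle, with an adjusted p by limma of 0.782.

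The hepatocyte markers Alb and Ttr were at 14.98 and 14.54, averaged over all arrays. Of 7 measured enterocyte markers, Si at 2.74, Slc15a1 at 3.00 and Fabp6 at 3.01 were near the lowest signal on the arrays (2.02), Vil1 at 4.40 and Cdx2 at 4.44 lay under the median probe set (5.16), and Fabp2 at 6.11 and Slc10a2 at 6.28 lay above it. The mean level of 7 hepatocyte markers, each centred on its mean over all arrays, averaged between -0.03 and 0.02 in every group. Of these 7, 3, 5, 5, 5 and 3 had a log2 fold change below 0 from 0.1 to 959 mg/kg. Their medians were 0.005, -0.003, -0.041, -0.03 and 0.006, and 0 of the 7 passed the threshold. The mean level of 6 cholangiocyte markers ranged from -0.174 to 0.589 at 959 mg/kg, against -0.301 to 0.184 in vehicle, and 0 of the 6 passed the threshold. From 0.1 to 959 mg/kg 1, 2, 3, 1 and 0 of the 6 had a log2 fold change below 0. Their medians were 0.057, 0.042, 0.015, 0.161 and 0.255 in that order, and 0 of the 6 had a trend below 0. The cholangiocyte marker Krt19 averaged 5.94 at 959 mg/kg and 5.35 in vehicle (adjusted p by limma 0.748).

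Markers of other liver cells did not pass the threshold by limma at any single dose, and their log2 fold changes against vehicle were as follows. Of 6 Kupffer cell and macrophage markers, 6, 5, 5, 5 and 5 had a log2 fold change below 0 from 0.1 to 959 mg/kg, with medians of -0.41, -0.46, -0.28, -0.15 and -0.20. Of 6 lymphocyte markers, 4, 6, 6, 5 and 4 were below 0 in the same order, with medians between -0.24 and -0.07. Of 6 endothelial markers, 5, 5, 5, 3 and 5 were below 0, with medians between -0.18 and 0.01. Of 8 stellate cell and fibroblast markers, 1, 2, 0, 0 and 1 were below 0, with medians of 0.08, 0.05, 0.22, 0.36 and 0.08. Of these 8, only Timp1, an inhibitor of metalloproteinases, rose by the trend (adjusted p by limma 0.012), a call lost in 2 of 47 alternative fits with an adjusted p up to 0.752. Of all probe sets 0.393% passed by the trend, in either direction. The part of these markers in the trend of Abcb4 and in the differences of Abcg5 and Abcg8 was not tested.

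An RNA quality measure, the beta-actin signal at the 3′ end minus that at the 5′ end, averaged between 1.14 at 959 mg/kg and 1.24 at 0.1 mg/kg, against 1.16 in vehicle. Its deviations from group means over 36 arrays were related to those of Atp8b1 (r = 0.577, rho = 0.544, permutation p adjusted over 14 relations 0.033 and 0.0349, r = 0.473 without the 2 farthest arrays). The hepatocyte marker level was related to Slc10a1 (r = 0.494, rho = 0.485, adjusted permutation p 0.0451 and 0.05, r = 0.424 without the 2 farthest arrays). With the actin measure Abcg5 had r = 0.318 and rho = 0.327 (adjusted permutation p 0.226 and 0.237), and Abcg8 r = 0.358 and rho = 0.322 (0.196 and 0.237). Abcb4 had r = 0.113 and rho = 0.055 with the actin measure (adjusted permutation p 0.76 and 0.87), and r = 0.159 and rho = 0.110 with the hepatocyte marker level (0.656 and 0.87).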

How the data were processed

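Per the labels' protocols, RNA that met limits of concentration, purity and integrity was amplified with a 3′ IVT kit and hybridised to Affymetrix arrays. The deposited values are log2 signals, made by the authors with RMA in the affy package per the submitters' processing notes, with no version given. All sample columns were used (0 left out). The table held 31099 probe sets, from which 57 controls of the array were dropped. A single symbol was annotated for 20826 probe sets, more than 1 for 436, and 9780 had no symbol. Array medians ran from 5.12 to 5.21 and r between arrays, across probe sets, from 0.988 to 0.996. Replicate 6 of 0.1 mg/kg had the lowest array weight (0.517, the others up to 1.39).

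Linear models with a mean for each group were fitted by limma 3.58.1 (R 4.3.3), with 30 residual and 5.12 prior degrees of freedom, in place of the maanova package that the series names. Tests were two-sided, and each comparison was adjusted separately by the Benjamini-Hochberg method across its 31042 probe sets. The scripts were tested on simulated data. Correlations used Python 3.11.15 and numpy 2.4.6, with deviations permuted within groups 100000 times. Those with RNA quality and hepatocyte markers were added after values were seen. The 7 genes and the lists were chosen with earlier results of these data known. Named from the lists were genes past the threshold at any dose, or else the 1 with the smallest F-test p, and the 3 genes most like each transporter. Abcb1a, Abcc2, Nr1h4 and the marker genes were named beyond that rule, with values known. Where a gene had several probe sets, the one with the highest mean stood for it. Sequences are from RefSeq (GRCr8), and the array files name no genome build. Alternatives were other normalizations, filters, variance models and dose scales, a block for the replicate number, weights for arrays, the compared groups alone and each array left out.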

Additional observations from a re-analysis of the deposited data

Results flagged for a closer look

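In 5 of 54 sets of 6 arrays (9 probe sets in 6 groups), 1 array stood so far from the rest that its gap to the nearest array, divided by the range of the set, was above Dixon's 95% critical value for 6 arrays. Chance flags about 1 in 20 such sets. Atp8b1 read 8.638 in replicate 5 of 95.9 mg/kg, where the other 5 arrays lay between 8.344 and 8.451. The second Atp8b1 probe set read 4.977 in replicate 6 of 0.1 mg/kg, with the others between 6.444 and 7.109. That array also had the lowest array weight of the series, 0.517. The second Atp8b1 probe set read 5.404 in replicate 6 of 959 mg/kg, with the others between 6.521 and 6.699. Scarb1 read 8.416 in the same array, with the others between 8.082 and 8.161. The second Scarb1 probe set read 8.252 in replicate 4 of vehicle, with the others between 8.019 and 8.087. No cause was tested.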

How the results depend on the processing

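Of 3300 values under the alternatives, for 96 results, 3275 kept their side of the threshold or, for counts, their value, and 25 did not. A sign changed in 45 values, none of them past the threshold. The Abcb4 trend, called at -0.065 per rank (adjusted p 0.0317), was -0.062 after subtracting array medians (adjusted p 0.0528), -0.067 in dose rank without the vehicle arrays (0.316) and -0.017 per 100 mg/kg on a straight line in dose (0.819). The count of 1 probe set past the threshold for the trend was then 0. With each array left out in turn the slope ran from -0.070 to -0.059 and the adjusted p from 0.0132 to 0.0935, and the count was 0 without any 1 of 8 arrays (replicates 2 and 4 of vehicle, 5 of 0.1 mg/kg, 2, 5 and 6 of 95.9 mg/kg, 2 and 3 of 959 mg/kg) and 1 otherwise. Those fits rest on fewer arrays. The cause of the losses was not tested. The count at 9.59 mg/kg was 0 to 1, with Abcg8 called without replicate 1 of that dose. The replicate block gave Abcb4 a trend of -0.065 (adjusted p 0.0407) and changed 1 call, the correlation of Abcb4 with Slc10a1 (r = 0.461, adjusted permutation p 0.0616). The replicate numbers do not pair the arrays. Deviations of 90 same-numbered pairs had a mean r of -0.022 (from -0.239 to 0.375), 12 of them over 0.1, against 0.004 for other pairs, and 4 of 36 arrays correlated best with their own number. Averaging the probe sets of Abcg5 and Abcg8 was not run, since each has 1. Abcc3 kept its calls at 3 doses in all 45 alternatives, and lost its trend call in 2 of 47. Pemt lost its trend call in 1 of 47, with dose itself as the scale. Abcc2 lost its trend call in 7 of 47 and Timp1 in 2 of 47. Standard errors of the log2 fold changes against vehicle lay between 0.0517 (Slc10a1) and 0.274 (Abcg8), so changes of a few percent could not be detected with 6 arrays per group. Much larger differences also went uncalled. Abcg8 at 9.59 mg/kg differed from vehicle by -49.8% with an adjusted p by limma of 0.205, and Abcb4 at 959 mg/kg by -17.7% with 0.434.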
